A study of Mus musculus with 23 samples.

Results

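Hippocampus of XY mice with testes was compared with hippocampus of XY mice with ovaries across all 13766 genes of the deposited table. The comparison used 12 of the 23 samples in the study, 6 XYM (XY chromosomes, testes) and 6 XYF (XY chromosomes, ovaries), chosen by the sex chromosomes and gonad that the labels give. The other 11 samples, 6 XXM and 5 XXF, entered the same model and served as the reference for the same gonadal contrast in XX animals.

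The animals were FCG mice, a model named for its 4 core genotypes, bred on the C57Bl/6J strain and about 12 months old at tissue collection. In this model Sry, the testis-determining gene, is missing from the Y chromosome and is carried as a transgene on an autosome, so that the gonad and the sex chromosomes are inherited apart. XYM and XYF animals therefore both carry the Y chromosome that lacks Sry, and differ in the Sry transgene and in everything that follows from having testes or ovaries, including adult hormones. Pups were weaned into cages by the look of their genitalia, so cage and gonad cannot be told apart in these data. Each library came from a different animal and was made from 500 ng of total RNA depleted of ribosomal RNA, with reads of 100 bases from both ends. The labels mention neither gonadectomy nor hormone treatment.

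Most genes that differed belonged to the interferon response. Type I and type II interferons bind receptors whose JAK kinases activate STAT transcription factors, which together with IRF9 bind the interferon-stimulated response element in the promoters of antiviral genes. The products of those genes include the IFIT proteins, which bind foreign RNA, the OAS family, which senses double-stranded RNA, guanylate-binding proteins (GBP) and immunity-related GTPases (IRG), which attack intracellular pathogens, and MHC class I molecules with the immunoproteasome that supplies their peptides. In brain, microglia, endothelium and astrocytes are known to respond to interferon.

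Values below are in CPM, the count of a gene relative to its library total after scaling of the libraries, and fold changes are log2 of XYM over XYF with an approximate standard error (SE). A gene was called where its Benjamini-Hochberg adjusted p from edgeR's quasi-likelihood test over all 13766 genes was under 0.05. Library totals ran from 11548165 to 32618532 counts in the 12 XY libraries. The mean total was 18289400 ± 5776740 (SD, n = 6) in XYF and 23612500 ± 6237490 (SD, n = 6) in XYM, a difference within the spread of the libraries (exact two-sided permutation test, p = 0.145, adjusted p = 0.628 over 13 such checks).

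Several libraries stood apart. XYF replicate 4 held 94.1 CPM of Xist, a long non-coding RNA made from the inactive X, while the XYF median was 2.01 CPM and the XYM libraries held at most 2.86 CPM. The same library held 186 CPM of Sag, 79.1 CPM of Nrl and 97.3 CPM of Rom1, genes of retinal photoreceptors, against XYM maxima of 3.34, 1.98 and 5.30 CPM. XYF replicate 5 and XYM replicate 1 were rich in RNA of the choroid plexus, the epithelium that makes cerebrospinal fluid: its carrier protein transthyretin (Ttr) reached 2927 and 2386 CPM there, against group medians of 56.7 CPM in XYF and 68.0 CPM in XYM. XYF replicate 1 and XYM replicate 1 lay nearest to the other group in most of the genes described here. Calls that ended when 1 of these libraries was left out are named beside the genes concerned.

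The 4 measured Y-linked genes were alike in both XY groups and at or near 0 in XX groups. Ddx3y averaged 61.8 ± 6.88 CPM (SD, n = 6) in XYF and 61.8 ± 6.81 CPM (SD, n = 6) in XYM, and Eif2s3y, Kdm5d and Uty differed by 0.11, 0.10 and 0.05 on the log2 scale. Sry itself was not analysed here. A block of genes at the distal end of the X chromosome stood at a higher level in both XY groups than in the XX groups: Hccs, which attaches haem to cytochrome c, averaged 44.0 ± 4.88 CPM (SD, n = 6) in XYF and 40.6 ± 2.46 CPM (SD, n = 6) in XYM, against 22.4 ± 2.47 CPM (SD, n = 5) in XXF and 22.4 ± 1.26 CPM (SD, n = 6) in XXM. None of the 7 measured genes of that block was called between XYM and XYF. Tlr7, the endosomal receptor for single-stranded RNA in that block, averaged 8.88 ± 1.52 CPM (SD, n = 6) in XYF and 7.78 ± 1.63 CPM (SD, n = 6) in XYM, a log2 difference of -0.19 ± 0.14 (SE, edgeR adjusted p = 0.704).

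Of 13766 genes, 31 fell in XYM relative to XYF and 0 rose, which is 0.225% of the genes tested. At an unadjusted p under 0.05, edgeR found 641 genes lower in XYM (4.66%) and 547 higher (3.97%). DESeq2 called 46 genes lower and 1 higher, and limma voom called 33 lower and 0 higher. The single gene that DESeq2 placed higher in XYM was Rims1, a scaffold of the presynaptic active zone, at 0.24 on the log2 scale (DESeq2 adjusted p = 0.0164), which edgeR put at 0.24 ± 0.06 (SE, adjusted p = 0.107). The 31 log2 fold changes ran from -1.78 to -0.49 with a median of -1.08, while the median over all genes was -0.01. The table holds only genes with at least 20 counts in every library of at least 1 group, and 3 of the 31 (Usp18, H2-Q7 and Oas2) met this through XYF alone, as did 21 of all genes. These 3 had to be high in XYF to be measured, so their fold changes and ranges are a description.

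**Figure D1:**
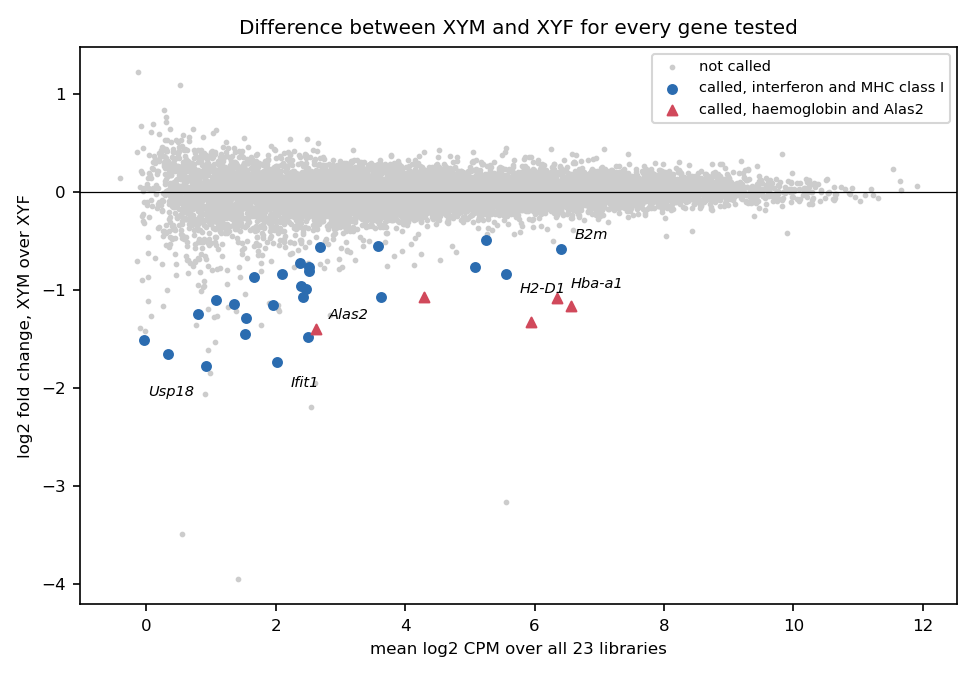
Each point is 1 of the 13766 genes, with its mean log2 CPM over all 23 libraries on the horizontal axis and its log2 fold change of XYM over XYF on the vertical axis. All 31 called genes (blue circles for interferon and MHC class I genes, red triangles for haemoglobin genes and Alas2) lie below 0, between -1.78 and -0.49.

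By function, 26 of the 31 genes were interferon-inducible or MHC class I genes, and the other 5 were 4 haemoglobin genes and Alas2. In all 31 the highest of the 4 group means was that of XYF, which the choice of genes lower in XYM favours. In 23 of the 31 the lowest group mean was that of XXM, and in 30 of the 31 the XYM libraries overlapped those of XXF. The grouping by function was made after the called genes were seen.

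Promoters of some of the called interferon and MHC class I genes are shown because they carry a shared sequence. The windows, 250 bases before to 50 bases after each gene's start, were taken from RefSeq with its GRCm38.p6 build, and 18 of these 26 genes had one. The core of the interferon-stimulated response element, a pair of GAAA with 2 bases between, on either strand (TTTC when read on the other), was found in 12 of the 18 (66.7%), in 0 of the 4 blood genes with a window, and in 387 of 10910 tested genes with a window (3.55%). In the sequences below the match is in capitals with 25 bases on either side, written 5′ to 3′ on the strand of the gene. They were picked from the 12 genes with a match. Gbp3, Ifit1, Isg15 and Gbp2 were among the genes with the smallest p, and B2m and H2-T23 belong to MHC class I. Ifit3, Rsad2 and Igtp are further antiviral effectors and GTPases. No match was found in the windows of Oasl2, Irf7 and Psmb8, nor in those of the MHC class I genes H2-D1, H2-K1 and H2-Q7.
Gbp3 (chr3:142559974-142560039, plus strand): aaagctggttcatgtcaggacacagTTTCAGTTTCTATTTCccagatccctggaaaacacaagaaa
Ifit1 (chr19:34640760-34640838, plus strand): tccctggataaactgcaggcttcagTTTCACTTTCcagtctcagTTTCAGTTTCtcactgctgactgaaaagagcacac
Isg15 (chr4:156200850-156200921, minus strand): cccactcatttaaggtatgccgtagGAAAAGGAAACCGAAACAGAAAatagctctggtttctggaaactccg
Gbp2 (chr3:142620579-142620638, plus strand): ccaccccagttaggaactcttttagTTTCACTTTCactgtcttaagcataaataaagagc
B2m (chr2:122147523-122147582, plus strand): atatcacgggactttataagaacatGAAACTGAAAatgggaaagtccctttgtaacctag
H2-T23 (chr17:36032791-36032850, minus strand): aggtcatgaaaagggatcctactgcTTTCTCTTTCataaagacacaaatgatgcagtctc
Ifit3 (chr19:34583348-34583441, plus strand): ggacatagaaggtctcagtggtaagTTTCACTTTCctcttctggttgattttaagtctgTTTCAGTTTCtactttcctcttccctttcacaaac
Rsad2 (chr12:26456538-26456597, minus strand): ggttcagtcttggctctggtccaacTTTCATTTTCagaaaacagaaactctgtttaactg
Igtp (chr11:58199497-58199556, plus strand): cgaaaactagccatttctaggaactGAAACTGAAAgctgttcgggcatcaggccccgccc

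The matches in Isg15 overlap one another, 3 in a run of 22 bases that lies 78 to 57 bases before the start of the gene, and those in Gbp3 lie 45 to 30 bases before its start. Ifit1 and Ifit3 hold 2 separate matches each. Gbp5, Gbp7 and I830012O16Rik, the record for Ifit3b, hold matches too. A second motif, the gamma-activated site that STAT dimers bind (TTC and GAA with 3 bases between), was found in 4 of the 18 windows (22.2%) and in 891 of 10910 (8.17%). The palindromic element searched for oestrogen receptors was GGTCA and TGACC with 3 bases between. That for androgen and glucocorticoid receptors was AGAACA and TGTTCT with 3 bases between. Each was in 0 of the 22 called genes with a window and in 1 of 10910, too rare for the 0 to be informative. A match of letters does not show that a factor binds.

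Among antiviral effectors, the group mean of Ifit1 was 3.40 times as high in XYF as in XYM. Ifit1, which binds viral RNA lacking the host cap, ranged from 6.52 to 14.2 CPM with a median of 10.8 in XYF, and from 2.30 to 6.10 CPM with a median of 2.60 in XYM. Every XYM library was below every XYF library, and the highest XYM library was replicate 1. The log2 fold change was -1.74 ± 0.23 (SE, edgeR adjusted p = 0.000395).

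Usp18, the protease that removes ISG15 from proteins and dampens the interferon receptor, ranged from 3.34 to 6.86 CPM with a median of 5.12 in XYF and from 0.424 to 2.95 CPM with a median of 1.36 in XYM. It had the largest fold change of the called genes, -1.78 ± 0.29 (SE, edgeR adjusted p = 0.00316), again without overlap of the groups. Isg15, the ubiquitin-like protein itself, lay between 2.69 and 3.73 CPM (median 3.24) in XYF and between 0.914 and 2.21 CPM (median 1.19) in XYM. Its groups did not overlap either, and its log2 fold change was -1.24 ± 0.19 (SE, edgeR adjusted p = 0.00174). Counts for Usp18 were low, 9 to 88 per library in XYM, which limits its precision. Usp18 met the count minimum of the table through XYF alone, so its fold change and gap are a description.

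Oasl2, a member of the oligoadenylate synthetase family, ranged from 8.81 to 16.3 CPM (median 15.3) in XYF and from 2.36 to 9.95 CPM (median 4.57) in XYM, and fell by 1.48 ± 0.23 on the log2 scale (SE, edgeR adjusted p = 0.00174). Here the groups met: replicate 1 of XYM was above replicate 1 of XYF, and the other 10 libraries kept apart. Oas2, of the same family, ranged from 1.23 to 2.51 CPM (median 1.75) in XYF and from 0.471 to 0.914 CPM (median 0.546) in XYM, with no overlap. Its log2 fold change was -1.51 ± 0.31 (SE, edgeR adjusted p = 0.0244), from 8 to 24 counts per XYM library. Oas2 met the count minimum of the table through XYF alone, so these values are a description. The call of Oas2 was lost in 8 of the 12 fits that left out 1 XY library, those without XYF replicate 2, 3, 4 or 5 or XYM replicate 2, 4, 5 or 6 (edgeR adjusted p up to 0.100).

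Ifit3 had 15.2 to 31.1 CPM (median 27.7) in XYF and 8.81 to 19.5 CPM (median 11.7) in XYM, and I830012O16Rik had 5.86 to 12.3 CPM (median 10.7) against 3.26 to 7.64 CPM (median 4.39). Both fell, by 1.07 ± 0.18 and 1.08 ± 0.18 (SE, edgeR adjusted p = 0.00316 and 0.00334), and both overlapped between groups. Since the genes are close copies, their reads could be split between them. Rsad2 (viperin), an enzyme that makes a chain-terminating nucleotide, ranged from 2.99 to 7.12 CPM (median 4.84) in XYF and from 1.41 to 2.68 CPM (median 2.28) in XYM, without overlap, with a log2 fold change of -1.14 ± 0.22 (SE, edgeR adjusted p = 0.0178). Rtp4 and Parp9 also fell, by 1.10 ± 0.23 and 0.81 ± 0.16 (SE, edgeR adjusted p = 0.0335 and 0.0178). Rtp4 is a chaperone induced by interferon, and Parp9 is a partner in interferon-induced transcription. These 3 calls depended on single libraries. Rsad2 was lost without XYF replicate 5 or XYM replicate 2 or 5, and Parp9 without XYF replicate 5 or XYM replicate 4, 5 or 6 (edgeR adjusted p up to 0.0675 and 0.0710). Rtp4 was lost in 9 of the 12 fits, and kept its call only without XYF replicate 1, XYF replicate 4 or XYM replicate 1 (edgeR adjusted p up to 0.138 in the other fits).

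Few regulators of the pathway were called. Irf7, the factor that amplifies type I interferon, ranged from 4.35 to 9.37 CPM (median 7.24) in XYF and from 0.896 to 5.06 CPM (median 2.25) in XYM. It fell by 1.45 ± 0.27 on the log2 scale (SE, edgeR adjusted p = 0.00853), and only replicate 1 of XYM reached into the range of XYF.

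Of 20 measured members of the list of interferon receptors and JAK-STAT components, 1 was called, and the median was -0.01, equal to that of all genes to this precision. The receptor genes stood at 0.02 ± 0.07 (Ifnar1), -0.10 ± 0.09 (Ifngr1) and 0.05 ± 0.06 (Ifngr2) on the log2 scale (SE). Irf9, which joins STAT proteins on DNA, stood at -0.56 ± 0.15 (SE, edgeR adjusted p = 0.246) and Stat2 at -0.07 ± 0.10 (SE, edgeR adjusted p = 0.856). Of 22 sensors of RNA and DNA and their adaptors, 0 were called by edgeR, with 2 at an unadjusted p under 0.05. These were the RNA sensors Ifih1 (MDA5), at -0.74 ± 0.19, and Ddx58 (RIG-I), at -0.58 ± 0.14 (SE, edgeR adjusted p = 0.147 and 0.107). DESeq2 called both, with adjusted p of 0.0275 and 0.0180, and limma voom called neither.

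Of the whole list of interferon response genes, 38 of 43 were in the table and 12 were called, all lower in XYM. Their median log2 fold change was -0.62, and 37 of 38 were below 0 (97.4%) against 52.7% of all genes. At an unadjusted p under 0.05, 31 were lower and 0 higher, against 4.66% and 3.97% of all genes. The exception in sign was Adar, the RNA-editing enzyme, at 0.05 ± 0.06 (SE). This list, like the others, was drawn up with results of these data known, so its counts are a description.

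GBP and IRG GTPases assemble on the membranes of vacuoles that hold pathogens. Of 13 measured, 8 fell and the other 5 were also below 0, with a list median of -0.77. Over all genes 0.225% fell and 52.7% were below 0. Gbp3 had the smallest p of all genes. It ranged from 7.99 to 11.6 CPM (median 10.4) in XYF and from 4.07 to 6.80 CPM (median 5.06) in XYM, with a log2 fold change of -0.99 ± 0.12 (SE, edgeR adjusted p = 0.000310) and no overlap.

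Gbp2 ranged from 6.51 to 9.89 CPM (median 8.68) in XYF and from 3.44 to 5.96 CPM (median 3.94) in XYM. It fell by 0.96 ± 0.15 (SE, edgeR adjusted p = 0.00174) and was the only called member among 17 astrocyte genes, since it is also used as a marker of reactive astrocytes. Gbp5 and Gbp7 fell by 0.87 ± 0.15 and 0.57 ± 0.11 (SE, edgeR adjusted p = 0.00334 and 0.0244), each without overlap of the groups. Gbp6 fell by 1.16 ± 0.24 (SE, edgeR adjusted p = 0.0258) with overlap, from 5.51 to 13.3 CPM in XYF and from 2.12 to 6.73 CPM in XYM. The call of Gbp7 was lost without XYF replicate 2 or 5 or XYM replicate 2, 3, 4 or 6, and that of Gbp6 without XYF replicate 2, 4 or 5 or XYM replicate 2, 4, 5 or 6 (edgeR adjusted p up to 0.0983 and 0.108). Gbp genes lie in tandem clusters of near copies on chromosomes 3 and 5, so that reads of one may have been counted for another.

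Among the IRG genes, Iigp1 ranged from 3.92 to 9.17 CPM (median 6.56) in XYF and from 1.79 to 3.95 CPM (median 2.40) in XYM. It fell by 1.28 ± 0.23 (SE, edgeR adjusted p = 0.00493), with the groups overlapping only at their replicates 1. Igtp (Irgm3) fell by 0.73 ± 0.15 (SE, edgeR adjusted p = 0.0302) and the very large GTPase record Gm4070 by 0.77 ± 0.13 (SE, edgeR adjusted p = 0.00493). Irgm1 and Irgm2, which hold the other IRG proteins inactive on host membranes, stood at -0.36 ± 0.12 and -0.51 ± 0.15 (SE, edgeR adjusted p = 0.395 and 0.284). Igtp kept its call only without XYF replicate 1, XYM replicate 1 or XYM replicate 3, and was lost in the other 9 fits that left out 1 library (edgeR adjusted p up to 0.124). Gm4070 has near-identical copies, so its value is uncertain.

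**Figure D2:**
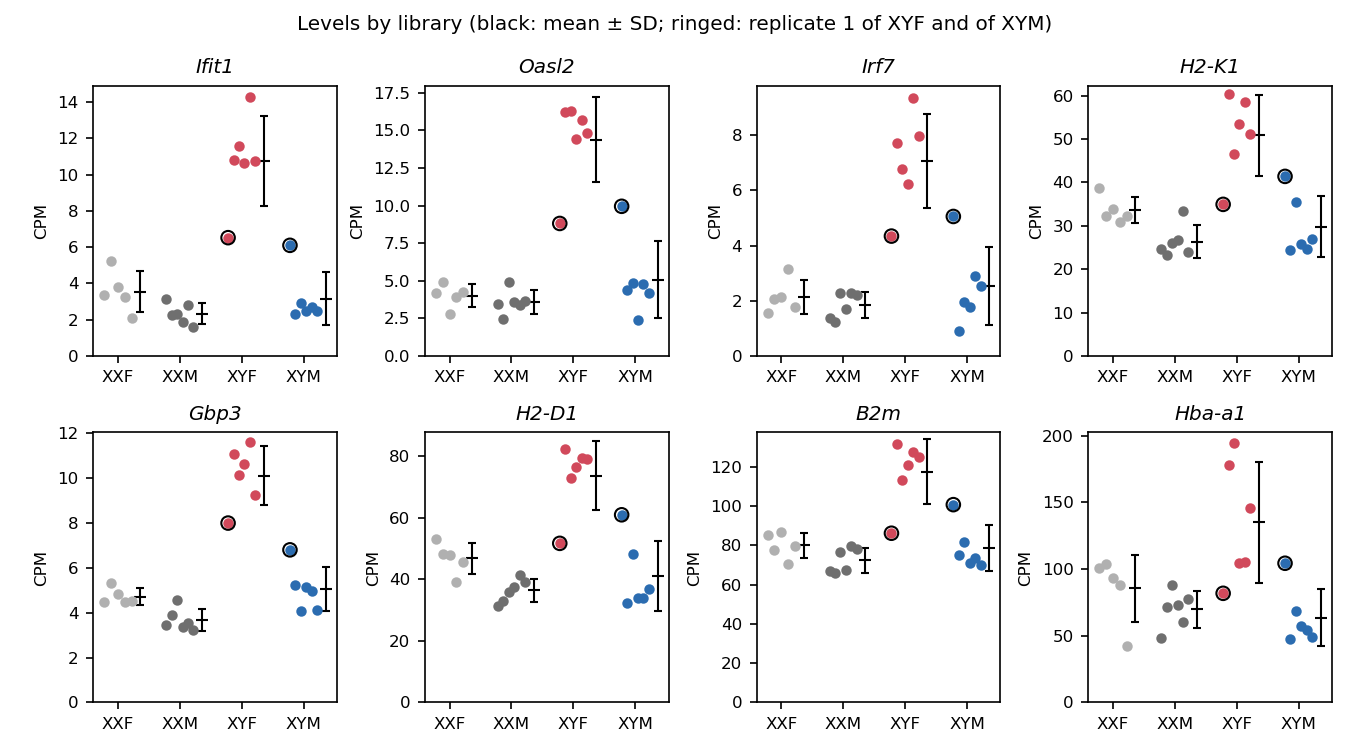
CPM of 8 called genes in each library (points) of XXF, XXM, XYF and XYM, with the group mean and SD in black and replicate 1 of XYF and of XYM ringed. In XYF, replicates 2 to 6 stand above all XYM libraries for each of the 8 genes, and the ringed libraries lie between the groups or on the other group's side.

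MHC class I molecules display peptides from inside the cell, each as a heavy chain paired with beta-2 microglobulin. Of 22 measured genes of this list, 6 fell and 19 were below 0 (86.4%, against 52.7% of all genes), with a median of -0.28. H2-D1, a classical heavy chain, ranged from 51.7 to 82.5 CPM (median 77.9) in XYF and from 32.4 to 61.0 CPM (median 35.5) in XYM, and its log2 fold change was -0.84 ± 0.13 (SE, edgeR adjusted p = 0.00189). Only replicate 1 of XYF and replicate 1 of XYM crossed.

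H2-K1, the other classical heavy chain, fell by 0.76 ± 0.13 (SE, edgeR adjusted p = 0.00334), from a median of 52.3 CPM in XYF to 26.4 CPM in XYM. B2m ranged from 86.2 to 132 CPM (median 123) in XYF and from 69.9 to 101 CPM (median 74.2) in XYM, and fell by 0.58 ± 0.09 (SE, edgeR adjusted p = 0.00274). The non-classical chains H2-Q7 and H2-T23 fell by 1.66 ± 0.28 and 0.55 ± 0.11 (SE, edgeR adjusted p = 0.00316 and 0.0267). H2-T23 was lost in 9 of the 12 fits, all but those without XYF replicate 1, XYM replicate 1 or XYM replicate 3 (edgeR adjusted p up to 0.110). Heavy-chain genes are close copies of one another, and counts of H2-Q7 were low (8 to 54 per XYM library). H2-Q7 met the count minimum of the table through XYF alone, so its fold change is a description.

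Psmb8, a catalytic subunit of the immunoproteasome, ranged from 5.63 to 7.96 CPM (median 6.55) in XYF and from 2.64 to 5.59 CPM (median 3.32) in XYM, and fell by 0.83 ± 0.15 (SE, edgeR adjusted p = 0.00654) without overlap. Its partner Psmb9 and the peptide transporter subunit Tap1 stood at -0.67 ± 0.22 and -0.63 ± 0.19 (SE, edgeR adjusted p = 0.388 and 0.331). The chaperones of general protein folding that also serve MHC class I, Calr, Canx and Pdia3, stood at 0.04, 0.01 and 0.01. H2-D1, H2-K1, H2-Q7, H2-T23 and Psmb8 all lie on chromosome 17, which held 5 of its 652 tested genes among the calls (0.767%), the highest share of any chromosome. Chromosome 19 followed with 3 Ifit genes of 471 (0.637%) and chromosome 3 with 4 Gbp genes of 668 (0.599%).

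**Figure D3:**
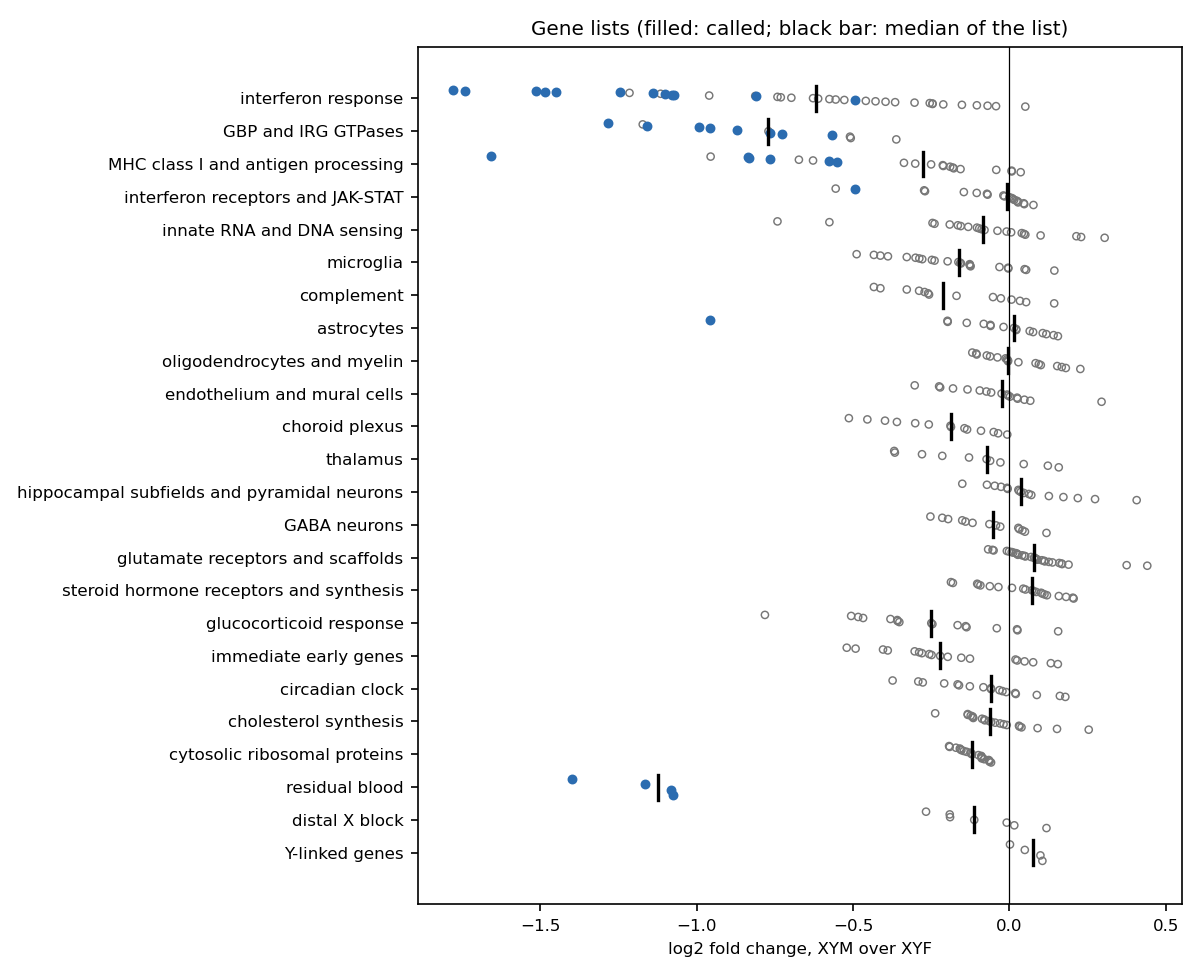
Log2 fold change of XYM over XYF for every measured member of 24 gene lists, with called genes filled and the list median as a black bar. Interferon response genes (median -0.62), GBP and IRG GTPases (-0.77) and the list named residual blood (-1.12) stand to the left of the other lists, whose medians lie between -0.28 and 0.08.

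The haemoglobin genes and Alas2, the first enzyme of haem synthesis in red cells, served as markers of red blood cells and their reticulocytes. They are called blood genes for short. Whether their RNA came from blood left in the tissue was not tested. Hba-a1, an alpha-globin gene, ranged from 81.8 to 195 CPM (median 125) in XYF and from 47.4 to 104 CPM (median 55.9) in XYM, and fell by 1.08 ± 0.22 (SE, edgeR adjusted p = 0.0244). Replicate 1 was the lowest XYF library and the highest XYM library, and with it the groups overlapped. Beta-s, the record for the adult beta-globin gene Hbb-bs, ranged from 88.0 to 252 CPM (median 152) in XYF and from 45.8 to 125 CPM (median 68.0) in XYM, with a log2 fold change of -1.16 ± 0.24 (SE, edgeR adjusted p = 0.0244).

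Alas2 ranged from 6.67 to 19.3 CPM (median 10.9) in XYF and from 2.49 to 8.81 CPM (median 4.28) in XYM, and fell by 1.40 ± 0.28 (SE, edgeR adjusted p = 0.0224). Hba-a2 and Hbb-b1 fell by 1.07 ± 0.23 and 1.33 ± 0.28 (SE, edgeR adjusted p = 0.0461 and 0.0335). Hba-a1 and Hba-a2, and likewise the beta-globin genes, are near-identical copies. Their calls depended on single libraries: all 5 were lost when any one of XYF replicate 2, XYF replicate 3, XYM replicate 2, XYM replicate 4, XYM replicate 5 or XYM replicate 6 was left out, and with the robust form of edgeR's test. Hba-a2 was also lost without XYF replicate 4 (edgeR adjusted p = 0.0503), and Hba-a2 and Hbb-b1 without XYF replicate 5 (0.0543 and 0.0523). Of the 12 fits, 7 ended the call of Hba-a1, 10 that of Hba-a2 and 9 that of Hbb-b1, among them those without XYF replicate 6 for all 3 and without XYM replicate 3 for the last 2.

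The summed level of these 5 genes ranged from 253 to 708 CPM in XYF and from 136 to 358 CPM in XYM (exact two-sided permutation test, p = 0.00433, adjusted p = 0.0563 over 13 checks; the smallest p that 924 assignments allow is 0.00216). In XX animals the sum ranged from 121 to 318 CPM in XXF and from 165 to 275 CPM in XXM. Both the blood genes and the interferon genes were higher in XYF than in XYM, as both sets were made up of genes called lower in XYM. Replicates 2 to 6 of XYF held 370 to 708 CPM of the blood genes, and those of XYM 136 to 217 CPM. The mean log2 level of the 26 interferon and MHC class I genes, relative to the XY libraries, was 0.50 to 0.83 and -0.81 to -0.51 in the same libraries. Replicate 1 was the lowest XYF library and the highest XYM library in both measures. Some libraries ranked differently for blood genes and interferon genes. XXF replicates 1 to 4 held 298 to 318 CPM of the blood genes, above the 253 CPM of XYF replicate 1. Their mean log2 level of the 26 interferon and MHC class I genes, relative to the XY libraries, was -0.51 to -0.33, against 0.08 in XYF replicate 1. Within XYF, replicate 5 had the highest interferon mean (0.83) with 396 CPM of blood genes, and replicate 3 the highest blood sum (708 CPM) with an interferon mean of 0.59. With a haemoglobin score added to the model as a covariate, after the data had been seen, 0 genes were called by edgeR, with 344 at an unadjusted p under 0.05. Of the 26 interferon and MHC class I genes, 24 were among those 344, with unchanged sign. The log2 fold change of Ifit1 moved from -1.74 ± 0.23 to -1.15 ± 0.26 with the covariate (SE, edgeR adjusted p = 0.644). That of Gbp3 moved from -0.99 ± 0.12 to -0.73 ± 0.16 (SE, edgeR adjusted p = 0.644). Whether blood RNA had a part in the interferon result was not tested.

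Few lymphocyte genes were in the table. Of 12 listed it held 2, and the defining T and B cell genes Cd3e, Cd8a and Ms4a1 were not among the genes analysed here. Ptprc (CD45), carried by all white blood cells and by microglia, had 5.16 to 9.54 CPM (median 6.24) in XYF and 3.92 to 5.56 CPM (median 4.43) in XYM, a log2 difference of -0.50 ± 0.14 (SE, edgeR adjusted p = 0.277). Lck stood at 0.12 ± 0.23 (SE, edgeR adjusted p = 0.913).

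Microglia, the resident macrophages of brain, express many interferon-induced genes. Of 24 microglial genes 0 were called by edgeR, and 21 were below 0, with a median of -0.16 and 11 at an unadjusted p under 0.05 in the lower direction. For all genes the shares were 52.7% below 0 and 4.66% lower at that p. The complement subunit C1qa had 49.8 to 77.8 CPM (median 61.2) in XYF and 38.6 to 55.0 CPM (median 45.7) in XYM, a log2 difference of -0.43 ± 0.11 (SE, edgeR adjusted p = 0.152), which DESeq2 called (adjusted p = 0.0301). The protease Ctss stood at -0.39 ± 0.10 (SE, edgeR adjusted p = 0.177) and was also called by DESeq2 (adjusted p = 0.0415). The identity genes P2ry12 and Cx3cr1 stood at 0.05 ± 0.11 and -0.03 ± 0.07 (SE).

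The summed level of 6 microglial markers ranged from 355 to 442 CPM (median 393) in XYF and from 337 to 407 CPM (median 359) in XYM, with overlap (exact two-sided permutation test, p = 0.0649, adjusted p = 0.422 over 13 checks). In bulk tissue fewer cells of a type cannot be told apart from less RNA per cell. Sums of the markers of astrocytes, oligodendrocytes, endothelium, mural cells, thalamus, hippocampal subfields and GABA neurons gave exact permutation p-values between 0.342 and 0.935. The choroid plexus score, which is set by replicate 5 of XYF and replicate 1 of XYM, gave p = 0.747 in the same exact permutation test. All 14 choroid plexus genes were below 0, against 52.7% of all genes. None of the 14 was called by edgeR, with 0 at an unadjusted p under 0.05.

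A mean over the 26 interferon and MHC class I genes places each library, but does not show whether single genes vary together. The 26, like the 5 blood genes, were chosen for lower values in XYM in these same libraries. The gap between the groups is therefore a description. Expressed as the mean log2 CPM of the 26 genes minus the mean over the 12 XY libraries, replicates 2 to 6 of XYF lay between 0.50 and 0.83 and replicates 2 to 6 of XYM between -0.81 and -0.51. Replicate 1 of XYF stood at 0.08 and replicate 1 of XYM at 0.07. The 5 blood genes, on the same scale, stood at -0.17 in replicate 1 of XYF and 0.33 in replicate 1 of XYM, against 0.36 to 1.25 and -1.11 to -0.48 in the other libraries of their groups.

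**Figure D4:**
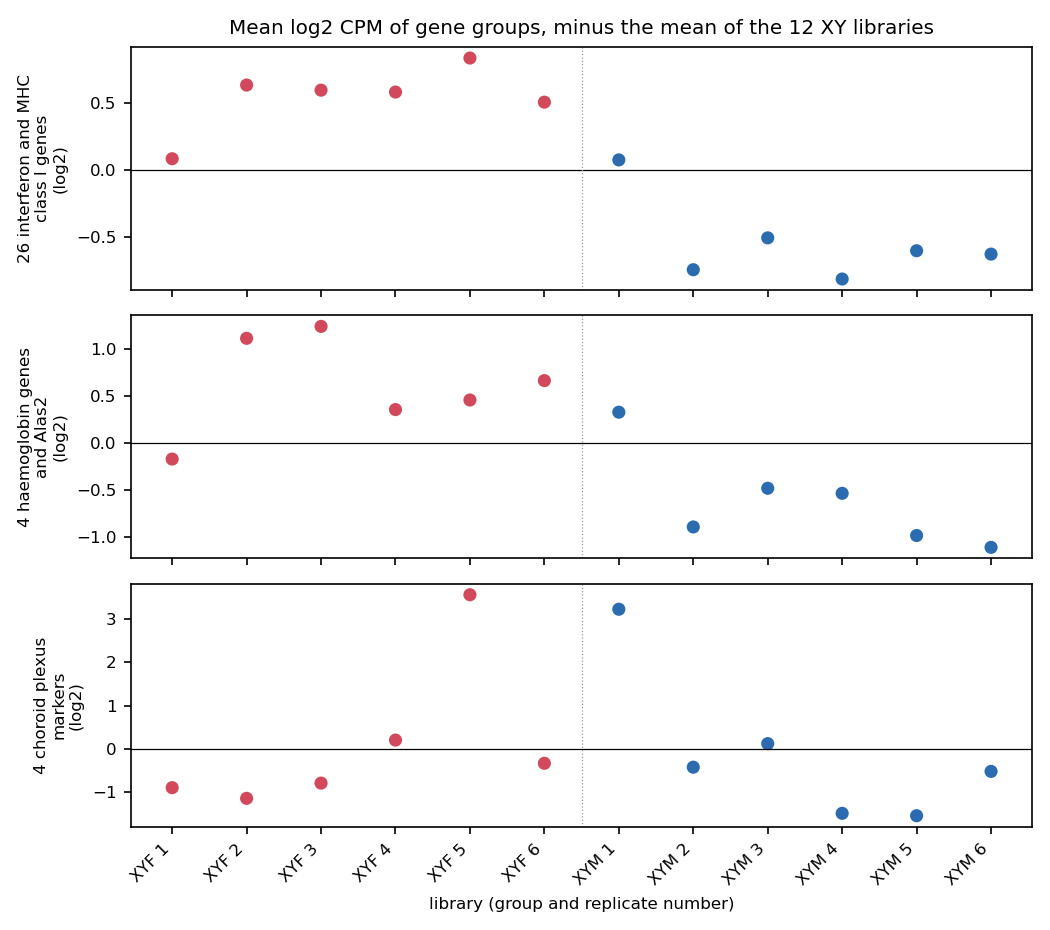
Mean log2 CPM of 3 gene groups in each of the 12 XY libraries, minus their mean over these libraries: 26 interferon and MHC class I genes, 4 haemoglobin genes with Alas2, and 4 choroid plexus markers. Replicate 1 of each group lies near 0 in the top panel, and the choroid plexus markers peak in XYF replicate 5 and XYM replicate 1.

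Every XYM library was below every XYF library in 13 of the 31 called genes, all of them interferon or MHC class I genes, among them Gbp3, Ifit1, Isg15, Gbp2, Usp18, Gbp5, Gm4070, Psmb8, Gbp7, Oas2, Rsad2 and Parp9. Among all genes the same was seen in 25, or 0.182%. The 31 were chosen for lower values in XYM in these same libraries, which favours such a gap. Usp18 and Oas2 also met the count minimum of the table through XYF alone. The count of 13 is therefore a description. Replicate 1 was the highest XYM library in 30 of the 31 and the lowest XYF library in 24 of the 31. Without both of these libraries the groups did not overlap in any of the 31. Both were left out after they were seen to lie nearest to the other group, which favours that outcome. Without both, 59 genes were called by edgeR (56 lower and 3 higher), among them all 31. The animals behind these libraries are described in the labels in the same way as the others of their group.

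Left out in turn, each of the 12 libraries gave between 19 and 50 calls. Of the 26 interferon and MHC class I genes, 18 were called in all 12 of these fits and 8 were lost in 3 to 9 of them. All 8 were lost without XYF replicate 5, with edgeR adjusted p between 0.0543 and 0.0742. Without XYM replicate 1 there were 50 calls (49 lower and 1 higher), without XYF replicate 2 or XYM replicate 2 there were 20 each, and without XYM replicate 4, 5 or 6 there were 19 each. Without XYF replicate 4, the library with photoreceptor RNA, 26 genes were called, all of them among the 31. Without the 7 libraries rich in choroid plexus RNA over all 4 groups, a choice made after seeing the data, 44 were called (43 lower and 1 higher), 29 of them among the 31.

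With only XYF and XYM in the model, which then has fewer libraries to estimate the spread, 15 genes were called, all interferon or MHC class I genes. Between 15 and 26 of the 26 interferon and MHC class I genes were called in every alternative except the haemoglobin covariate.

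The same contrast in XX animals, XXM against XXF, called 0 genes by edgeR, while 1061 had an unadjusted p below 0.05. That number was 561 without XXM replicate 3, 671 without XXF replicate 2 and 225 without the libraries rich in choroid plexus RNA, with 0 called by edgeR each time. Such libraries were unevenly spread, 4 of the 6 XXM and 1 of the 5 XXF. DESeq2 placed 1 gene past the threshold, Fam43b, at -0.47 (DESeq2 adjusted p = 0.00724), and limma voom called 0. Of the 31 genes that fell in XY animals, 29 were below 0 in XX animals, against 49.7% of all genes. Their XX median was -0.29, and 11 had an unadjusted p under 0.05, all lower in XXM, as were 512 of all genes (3.72%). Without the libraries rich in choroid plexus RNA, 30 of the 31 were below 0, with a median of -0.40 and 12 at an unadjusted p under 0.05. With all libraries, the exceptions in sign were Gbp6 at 0.30 ± 0.26 and Parp9 at 0.04 ± 0.17 (SE).

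For Ifit1 the XX means were 3.54 ± 1.12 CPM (SD, n = 5) in XXF and 2.34 ± 0.579 CPM (SD, n = 6) in XXM, while XYF averaged 10.7 ± 2.48 CPM (SD, n = 6) and XYM 3.16 ± 1.45 CPM (SD, n = 6). Only XYF stood high, and XYM overlapped both XX groups. Gm4070 was the called gene whose XX difference was nearest to that in XY: it stood at -0.63 ± 0.14 in XX and -0.77 ± 0.13 in XY (SE).

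**Figure D5:**
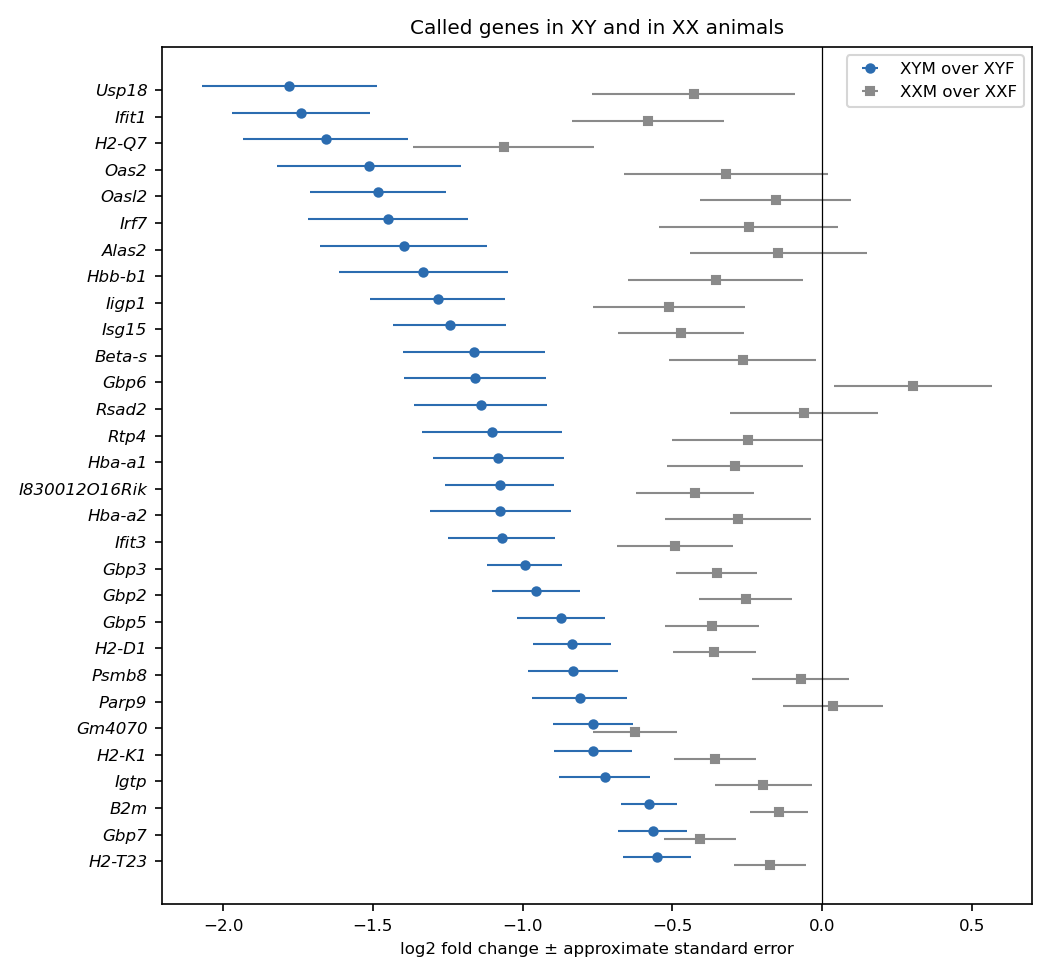
Log2 fold change with its approximate SE for 30 of the 31 called genes, XYM over XYF (blue circles) and XXM over XXF (grey squares). All 30 blue points lie at or left of -0.55, and 28 of the grey points lie left of 0.

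The difference between the gonadal contrasts of XY and XX animals was itself tested as an interaction. edgeR called 0 genes (444 at an unadjusted p under 0.05, 3.23%), DESeq2 0 (452) and limma voom 0 (415). In all 31 genes the interaction was negative, but they were chosen for a low XYM minus XYF difference, which is a term of the interaction, so that its sign is no test. Their smallest adjusted p was 0.670. Tm7sf2, a reductase of cholesterol synthesis, also had an adjusted p of 0.670, with a positive interaction of 0.52 ± 0.11 (SE, edgeR): it stood at 0.25 ± 0.08 in XY and -0.27 ± 0.08 in XX.

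The interaction depended on both replicate 1 libraries. Without XYM replicate 1, edgeR called Gbp6, Oasl2 and Bst2, a membrane protein that tethers virions. Without XYF replicate 1 it called 1 gene, and without both it called 7, among them B2m, Gbp6, Oasl2, Bst2, H2-D1 and Ifit1, each with a negative interaction. These 2 libraries lay nearest to the other group in most called genes, so leaving them out favours such calls. They are a description, as 0 genes were called with all libraries.

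Genes of steroid signalling were not called. The oestrogen receptor gene Esr1 stood at 0.18 ± 0.22, the progesterone receptor gene Pgr at 0.01 ± 0.09 and the steroid reductase gene Srd5a1 at 0.05 ± 0.09 (SE, edgeR adjusted p = 0.831, 0.989 and 0.902). The mineralocorticoid receptor gene Nr3c2 had 135 to 168 CPM (median 150) in XYF and 161 to 192 CPM (median 171) in XYM, a difference of 0.20 ± 0.07 (SE, edgeR adjusted p = 0.388).

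Of 21 measured genes for steroid receptors and steroid synthesis, edgeR called 0, with 3 at an unadjusted p under 0.05 and a median of 0.07. Esr2 and the aromatase gene Cyp19a1 were not analysed here. Targets of glucocorticoids tended to the other side of 0. Of 17, edgeR called 0 and 14 were below 0 (82.4%, against 52.7% of all genes), with a median of -0.25. At an unadjusted p under 0.05, 10 were lower, as were 4.66% of all genes. Nfkbia, the inhibitor of NF-kappaB, stood at -0.47 ± 0.12 (SE, edgeR adjusted p = 0.147) and the lipid droplet gene Plin4 at -0.78 ± 0.31 (SE, edgeR adjusted p = 0.516). DESeq2 called Nfkbia (adjusted p = 0.0376).

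No gene was called higher in XYM by edgeR with all libraries, and the 3 with the smallest p were Rims1, Lgr6 and Neb. Rims1 had 62.6 to 73.6 CPM (median 72.0) in XYF and 75.5 to 92.2 CPM (median 83.1) in XYM, so that its groups did not overlap, as in 22 of all genes in this direction (0.16%). Lgr6, a receptor for R-spondins, had 1.18 to 2.31 CPM (median 1.56) in XYF and 2.11 to 2.97 CPM (median 2.55) in XYM, at 0.63 ± 0.15 (SE, edgeR adjusted p = 0.113). Lgr6 stood at 0.68 ± 0.16 (SE) in XX animals as well. Neb stood at 0.54 ± 0.14 (SE, edgeR adjusted p = 0.202). With libraries left out, edgeR placed all 3 past the threshold in some fits. Lgr6 and Neb were called higher without XYF replicate 5 (adjusted p = 0.0303 each), and Neb without the libraries rich in choroid plexus RNA (adjusted p = 0.0445). Rims1 was called higher without XYM replicate 1 (adjusted p = 0.0355) and without replicate 1 of both groups (adjusted p = 0.0475).

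Neuronal lists gave 0 calls in edgeR. Of 31 glutamate receptor and scaffold genes, 26 were not below 0, the median was 0.08, and 6 were higher in XYM at an unadjusted p under 0.05. Over all genes, 52.7% were below 0, and 3.97% were higher and 4.66% lower at that p. The NMDA receptor subunit gene Grin2a had 59.9 to 105 CPM (median 90.2) in XYF and 102 to 141 CPM (median 113) in XYM, at 0.37 ± 0.13 (SE, edgeR adjusted p = 0.401). Prox1, which marks granule cells of the dentate gyrus, stood at 0.27 ± 0.11 (SE, edgeR adjusted p = 0.516), and the 17 genes of hippocampal subfields had a median of 0.04. All 21 cytosolic ribosomal protein genes were below 0, with a median of -0.12 and none called by edgeR (4 at an unadjusted p under 0.05).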

How the data were processed

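RNA-seq libraries from 23 hippocampi of FCG mice were analysed, 1 library per animal. The authors deposited 1 table with estimated counts per gene (columns headed raw) and log2 values scaled by them. Per the file headers, it holds genes with at least 20 estimated counts in 100% of the samples of at least 1 group. The submitters' processing notes name mm10 and DESeq. Aligner, counter and strand use of the counting: not given in the sources used here. Reads of overlapping genes on opposite strands may therefore be mixed. The table names genes by symbol and NCBI gene ID.

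Estimated counts were rounded to whole numbers, scaled by TMM and tested in R 4.3.3 with edgeR 4.0.16 (glmQLFit and glmQLFTest) with 1 mean per group over all 23 libraries. The filterByExpr rule kept all 13766 genes. SE is the absolute log2 fold change divided by the square root of F, and is approximate. Alternatives used DESeq2 1.42.0, limma 3.58.1 (voom, voom with sample quality weights, and limma on the deposited log2 values), other scalings, a minimum mean of 5 CPM, robust fitting, covariates for choroid plexus and depth, only the 2 groups compared, and each library left out. Another 3 were added after seeing the data. The test was tried on simulated counts first. Labels give animal numbers and no replicate numbers; replicates are numbered in accession order within a group, and the numbers pair nothing. P-values measure the spread between animals. No pair of XY libraries agreed within sampling noise (lowest chi-square per gene 4.30).

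The members and the 26 gene lists were chosen with earlier results of these data known. Of the listed genes, 46 entries were not in the table. Named were the genes that check the labels, up to 12 called genes per direction by smallest p and 3 by fold change, up to 5 called members per list (otherwise the 1 with the smallest p), 8 steroid-related genes, the 2 smallest p of the interaction and called genes of the chromosome with most calls per gene. Named outside this rule, after their values were seen, were the other called genes, photoreceptor and choroid plexus genes, list members given with a value beyond the rule, Rims1, Lgr6, Neb, Bst2, Isg20, Ly6a and Fam43b. RefSeq promoters of GRCm38.p6 were matched by gene ID for 10910 of the 13766 genes. Coordinates are 1-based. Some genes that the rule would name are not reported here.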

Additional observations from a re-analysis of the deposited data

Results flagged for a closer look

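In 92 groups of 6 XY libraries (46 genes in 2 groups), 19 held a library whose gap to its nearest neighbour took up more of the group's range than Dixon's 95% critical value allows. Chance alone flags about 1 in 20 such groups, and the genes are not independent of one another. Sag, Nrl, Rom1 and Ttr were put among the 46 after their high libraries had been seen. The number flagged therefore cannot be set against chance. Replicate 1 of XYM was the highest of its group for Ifit1 (6.10 CPM), Oasl2 (9.95 CPM), H2-Q7 (1.81 CPM), H2-T23 (13.5 CPM), Hba-a1 (104 CPM), Hba-a2 (28.7 CPM), Hbb-b1 (91.8 CPM) and Ttr (2386 CPM). Replicate 1 of XYF was the lowest of its group for Oasl2 (8.81 CPM), H2-D1 (51.7 CPM) and I830012O16Rik (5.86 CPM).

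Replicate 5 of XYF was the highest of its group for Gbp6 (13.3 CPM), Parp9 (12.1 CPM), Ttr (2927 CPM) and the glucocorticoid receptor gene Nr3c1 (124 CPM). Replicate 4 of XYF was the highest for Xist (94.1 CPM) and for the photoreceptor genes Sag (186 CPM), Nrl (79.1 CPM) and Rom1 (97.3 CPM). The 4 Y-linked genes examined were not picked out in this library by this measure.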

How the results depend on the processing

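The count of 31 called genes, all lower in XYM, became 15 with only the 2 groups compared in the model, 47 with DESeq2 (46 lower) and 18 with a mean of at least 5 CPM, where fewer genes were tested. It became 59 (56 lower) without XYF and XYM replicate 1 (7 for the interaction) and 0 with the haemoglobin covariate, both chosen after seeing the data. Leaving out 1 library at a time gave 19 to 50 genes for XYM against XYF (49 lower at the most), 0 to 3 for the interaction and 0 for XXM against XXF. DESeq2 called 1 gene in XX animals. In the other alternatives the count stayed between 25 and 44. Limma on the deposited log2 values called 28, 1 of them higher in XYM (Lgr6). With the haemoglobin covariate Beta-s stood at 0.00814 and Hbb-b1 at 0.0211 on the log2 scale, above 0, as the covariate is built from these genes; the cause of the other changes was not tested. No paired analysis was possible because the labels give no replicate numbers that groups share. Genes near 1 CPM, such as Oas2 and H2-Q7, rest on few counts.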

Other observations

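Below the threshold, further interferon-induced genes stood on the same side. Bst2 had 5.51 to 10.3 CPM (median 7.62) in XYF and 1.75 to 7.67 CPM (median 2.18) in XYM, at -1.21 ± 0.31 on the log2 scale (SE, edgeR adjusted p = 0.155). Isg20, an exonuclease that degrades viral RNA, averaged 1.94 ± 0.615 CPM (SD, n = 6) in XYF and 0.685 ± 0.468 CPM (SD, n = 6) in XYM, at -1.42 ± 0.32 (SE, edgeR adjusted p = 0.0552). Limma voom called both, with adjusted p of 0.0344 for Bst2 and 0.0203 for Isg20. Ly6a, a surface protein of endothelium that interferon induces, had 19.5 to 30.9 CPM in XYF and 13.5 to 18.4 CPM in XYM, without overlap, at -0.63 ± 0.15 (SE, edgeR adjusted p = 0.0893).

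Other lists held 0 genes called by edgeR, and their counts below 0 stand beside a share of 52.7% over all genes. Of 19 immediate early genes, which neuronal activity induces, 13 were below 0 with a median of -0.22 and 2 at an unadjusted p under 0.05, with a wide error for genes such as Fos (-0.40 ± 0.45, SE). Of 18 clock genes, 13 were below 0 with a median of -0.06, the largest difference being that of Dbp at -0.37 ± 0.14 (SE, edgeR adjusted p = 0.495), which stood at -0.42 in XX animals. Of 22 genes of cholesterol synthesis, 16 were below 0 with a median of -0.06. Of 18 oligodendrocyte genes, 10 were below 0, the median rounded to 0.00, and 0 were at an unadjusted p under 0.05.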
